A study of Mus musculus with 4 samples.

Results

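Esr1, Pgr, Prlr, Ghr and Nr3c1, the genes of 3 steroid receptors and of the receptors for prolactin and growth hormone, were followed across the cell types of the adult mouse mammary gland. They were chosen by name and are 5 of the 27998 genes counted. In the GENCODE annotation of mm10, Esr1 (ENSMUSG00000019768) lies on chr10:4611593-5005614, Pgr (ENSMUSG00000031870) lies on chr9:8899833-8968611, Prlr (ENSMUSG00000005268) lies on chr15:10177238-10349180 and Ghr (ENSMUSG00000055737), on the minus strand, on chr15:3317760-3583492. Nr3c1 is ENSMUSG00000024431. Droplet-based single-cell RNA sequencing (10x Chromium 3′ v2 kit) had been run on cells sorted by flow cytometry from C57BL/B6 mice, and RNA molecules were counted near their 3′ ends through unique molecular identifiers (UMIs). There were 4 libraries, 1 per genotype (control or Zeb1 MSKO) and age (8 or 9 weeks), set up to compare control with Zeb1 MSKO glands. The labels do not expand MSKO, name the Cre or promoter, or say which part of Zeb1 (a zinc-finger repressor of epithelial genes) was deleted. The labels also do not give the sort markers, the number of animals per library or the stage of the estrous cycle.

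Estrogen receptor alpha (Esr1) and the progesterone receptor (Pgr) are nuclear receptors that bind DNA when their steroid is present, and in the mammary epithelium both act mainly in luminal cells that then signal to their neighbours through secreted factors. The prolactin receptor (Prlr) and the growth hormone receptor (Ghr) are class I cytokine receptors that signal through the kinase Jak2 and the factors Stat5a and Stat5b. Prolactin drives milk production in the gland, growth hormone acts largely through the stroma, and the glucocorticoid receptor (Nr3c1) is expressed in most tissues and takes part in milk gene expression.

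Cells were assigned to types by 9 panels of 6 marker genes each, none of which is a member. A marker counted as positive when the cell's UMIs per 1000000 UMIs of the cell (CPM) exceeded the mean of the 4 library means. A cell needed at least 3 positive markers and 2 more than for any other panel. Of 34632 cells kept, the hormone-sensing luminal gate (Areg, Cited1, Foxa1, Prom1, Stc2, Fxyd2) took 2175 cells of the 8-week control, 1015 of the 8-week Zeb1 MSKO, 1903 of the 9-week control and 2416 of the 9-week Zeb1 MSKO library. The luminal progenitor gate took 2920, 1321, 1938 and 2746 cells in the same order of libraries, which is kept throughout, and the basal gate 1663, 3951, 2013 and 2308. Fibroblasts numbered 438, 597, 26 and 34, and endothelial cells 356, 381, 10 and 9, so endothelial values come from the 2 libraries at 8 weeks. Cells were chosen by these same markers, so high sums of a gate's own markers follow in part from the rule. Such sums are no check on how pure a gate is. In the hormone-sensing gate the 6 own markers summed to between 4324 and 6970 CPM. The luminal progenitor panel summed there to 168 to 273 CPM and the basal panel to 59.6 to 295 CPM. Endothelial cells held 4269 CPM of their own and 1580 CPM of the leukocyte panel in the 8-week control library. In the 8-week Zeb1 MSKO library they held 4175 and 776 CPM. The gates differed in depth, with a median of 14262 to 17306 UMIs per hormone-sensing cell, 7603 to 8541 per luminal progenitor and 5636 to 8022 per basal cell.

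Library totals ran from 80853204 to 122122443 UMIs, and 95 to 151 cell barcodes were shared between any pair of libraries (0.970% to 1.54% of the first library's). Zeb1 itself was found in fibroblasts (55.4, 71.3, 76.7 and 48.9 CPM) and in endothelial cells at 8 weeks (63.3 and 80.8 CPM), and it stayed at or below 1.10 CPM in the 3 epithelial gates of every library. The deleted part is not stated and the reads come from the 3′ end, so Zeb1 counts are no check on the genotypes. Nothing in the labels says that libraries are separate animals, so p-values measure the spread between these 4 libraries only.

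The promoter letters of the receptors that were highest in hormone-sensing cells are shown because these 3 genes were all higher there than in the other epithelial cells. RefSeq's table for GRCm38.p6, the assembly also called mm10, gave 8 start sites: 1 for Pgr, 2 for Esr1, 3 for Prlr and 2 for Ghr. Nr3c1 was left out of this search. Each window below is the 250 bases before a start site on the plus strand, 5′ to 3′, with motif matches in capitals. Pgr is on chr9:8899583-8899832 and Esr1, from its second listed start, on chr10:4709908-4710157. The Prlr window, also from the second listed start, is chr15:10223656-10223905. Of the listed starts of Esr1 and Prlr, the printed ones are those with a motif match before the start.
Pgr: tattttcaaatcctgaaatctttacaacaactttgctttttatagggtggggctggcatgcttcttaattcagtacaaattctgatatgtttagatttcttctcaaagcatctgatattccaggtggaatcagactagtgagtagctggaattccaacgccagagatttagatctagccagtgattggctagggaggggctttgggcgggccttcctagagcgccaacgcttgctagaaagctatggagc
Esr1: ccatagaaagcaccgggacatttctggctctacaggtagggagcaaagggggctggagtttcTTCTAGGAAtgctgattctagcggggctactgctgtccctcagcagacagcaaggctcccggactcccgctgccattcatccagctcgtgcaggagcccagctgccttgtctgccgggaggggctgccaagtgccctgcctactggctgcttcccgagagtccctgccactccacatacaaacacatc
Prlr: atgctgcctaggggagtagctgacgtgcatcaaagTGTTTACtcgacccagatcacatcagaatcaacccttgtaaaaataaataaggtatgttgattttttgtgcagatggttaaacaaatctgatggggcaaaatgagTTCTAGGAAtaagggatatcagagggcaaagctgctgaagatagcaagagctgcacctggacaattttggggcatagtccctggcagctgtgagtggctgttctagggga

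Searched on both strands in the 300-base windows (250 before to 50 after the start) were the palindromic estrogen response element and its half-site GGTCA, which the full element contains, the palindromic steroid hormone response element, the STAT element TTCNNNGAA, the forkhead motif TGTTTAC and the GATA motif AGATAA. The Pgr window held none of the 6. The printed Esr1 window held 1 STAT element, 188 bases before the start, and the printed Prlr window held a STAT element 110 bases and a forkhead motif 215 bases before it. The other Esr1 start had a half-site 16 bases into the transcript, and the other Prlr starts and both Ghr starts had none of the 6. Among the 32544 distinct promoter windows searched, 8.33% held the STAT element, 3.66% the forkhead motif and 40.5% the half-site. The GATA motif was in 11.2%, the steroid hormone element in 0.476% and the full estrogen element in 0.0707%. Counting at the 3′ end does not tell which start was used, and a match is a string of letters and not a measured binding site.

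Prlr was the member with the steepest gradient between cell types. Hormone-sensing cells held 1808, 1743, 2514 and 1603 CPM of Prlr, luminal progenitors 45.2, 56.2, 69.6 and 75.2, and basal cells 17.3, 18.5, 23.7 and 28.0. Among these epithelial gates, no library value of one gate overlapped with another gate. Fibroblasts held 61.5, 35.6, 18.0 and 21.0 CPM and endothelial cells 53.5 and 33.2 CPM at 8 weeks, overlapping with luminal progenitors or basal cells. In means, Prlr stood at 1917 ± 407 CPM in hormone-sensing cells, 61.5 ± 13.5 in luminal progenitors and 21.9 ± 4.94 in basal cells (SD, n = 4 libraries). The log2 difference between hormone-sensing cells and luminal progenitors was 5.0 (SE 0.16, edgeR quasi-likelihood adjusted p = 1.91e-09), and between hormone-sensing and basal cells 6.49 (SE 0.18, adjusted p = 1.27e-09). Between luminal progenitors and basal cells it was 1.48 (SE 0.14, adjusted p = 5.74e-06), and this one call was lost when called doublets were kept (log2 0.41, adjusted p = 0.141).

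Nearly every hormone-sensing cell carried Prlr RNA. The median cell held 24, 25, 36 and 26 Prlr UMIs in the 4 libraries, with a middle range of cells from 16 to 32 in the 8-week control and 17 to 34 in the 8-week Zeb1 MSKO library, and 27 to 47 and 19 to 35 at 9 weeks. After each cell was thinned at random to 2000 UMIs, so that all cells were read at the same depth, 94.9%, 95.4%, 98.0% and 93.3% of hormone-sensing cells still had a Prlr UMI. The cells varied more than counting alone gives: the variance of the thinned count was 1.42 to 1.70 times its mean.

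Pgr was also highest in the hormone-sensing gate. It stood there at 156, 158, 139 and 83.4 CPM, with the Zeb1 MSKO library at 9 weeks lowest. All 4 values lay above every value of the other gates, where the highest was 13.9 CPM in fibroblasts of the control library at 8 weeks. Relative to luminal progenitors (4.84 ± 1.61 CPM, n = 4) the log2 difference was 4.83 (SE 0.23, adjusted p = 2.12e-08), and relative to basal cells (6.77 ± 0.452 CPM, n = 4) it was 4.30 (SE 0.22, adjusted p = 2.62e-08). Thinned to 2000 UMIs, 26.2%, 25.3%, 24.0% and 14.4% of hormone-sensing cells had a Pgr UMI, and at full depth 82.2%, 84.0%, 81.4% and 68.2% did.

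Esr1, which induces Pgr in many estrogen-responsive cells, was highest in the same gate. Hormone-sensing cells held 39.5, 31.5, 36.3 and 47.5 CPM, luminal progenitors 2.47, 2.63, 3.43 and 4.24, and basal cells 1.71, 3.58, 3.63 and 2.97. The hormone-sensing values did not overlap with those of the other 2 epithelial gates, while luminal progenitors and basal cells overlapped with each other. Against luminal progenitors the log2 difference was 3.63 (SE 0.21, adjusted p = 1.02e-07) and against basal cells 3.71 (SE 0.22, adjusted p = 6.18e-08). A UMI of Esr1 was seen in 6.07%, 7.39%, 6.46% and 8.82% of thinned hormone-sensing cells and in 40.7%, 36.5%, 40.4% and 52.3% at full depth.

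Ghr and Nr3c1 ran the other way within the epithelium. Ghr stood at 8.43, 13.1, 10.2 and 10.3 CPM in hormone-sensing cells, below all 4 luminal progenitor values (17.9, 29.1, 25.4 and 16.5) and all 4 basal values (15.2, 28.6, 25.9 and 14.5). Its log2 difference in hormone-sensing cells was -1.02 against luminal progenitors (SE 0.15, adjusted p = 0.000138) and -0.94 against basal cells (SE 0.15, adjusted p = 0.00017). The gap was wider for the glucocorticoid receptor. Nr3c1 held 4.86, 4.65, 5.41 and 7.62 CPM in hormone-sensing cells, 25, 35.3, 32.8 and 27.4 in luminal progenitors, and 26.5, 32.2, 37.9 and 29.5 in basal cells. The corresponding log2 differences of hormone-sensing cells were -2.37 (SE 0.17, adjusted p = 5.81e-07) and -2.45 (SE 0.17, adjusted p = 2.51e-07).

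Counted together, 5 of 5 members differed between hormone-sensing cells and luminal progenitors, where 56.7% of the 14304 genes tested did, 28.6% higher and 28.1% lower in hormone-sensing cells. Against basal cells it was again 5 of 5, with 70.0% of all genes called (35.4% higher, 34.5% lower). Between luminal progenitors and basal cells 1 of 5 was called against 57.4% of all genes. In that comparison Pgr had a log2 difference of -0.53 (SE 0.22, adjusted p = 0.0555), and Esr1, Ghr and Nr3c1 were within 0.09 of 0 on the log2 scale. Differences between these cell types were common among all genes, so the counts of called members are to be read against those shares.

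**Figure D1:**
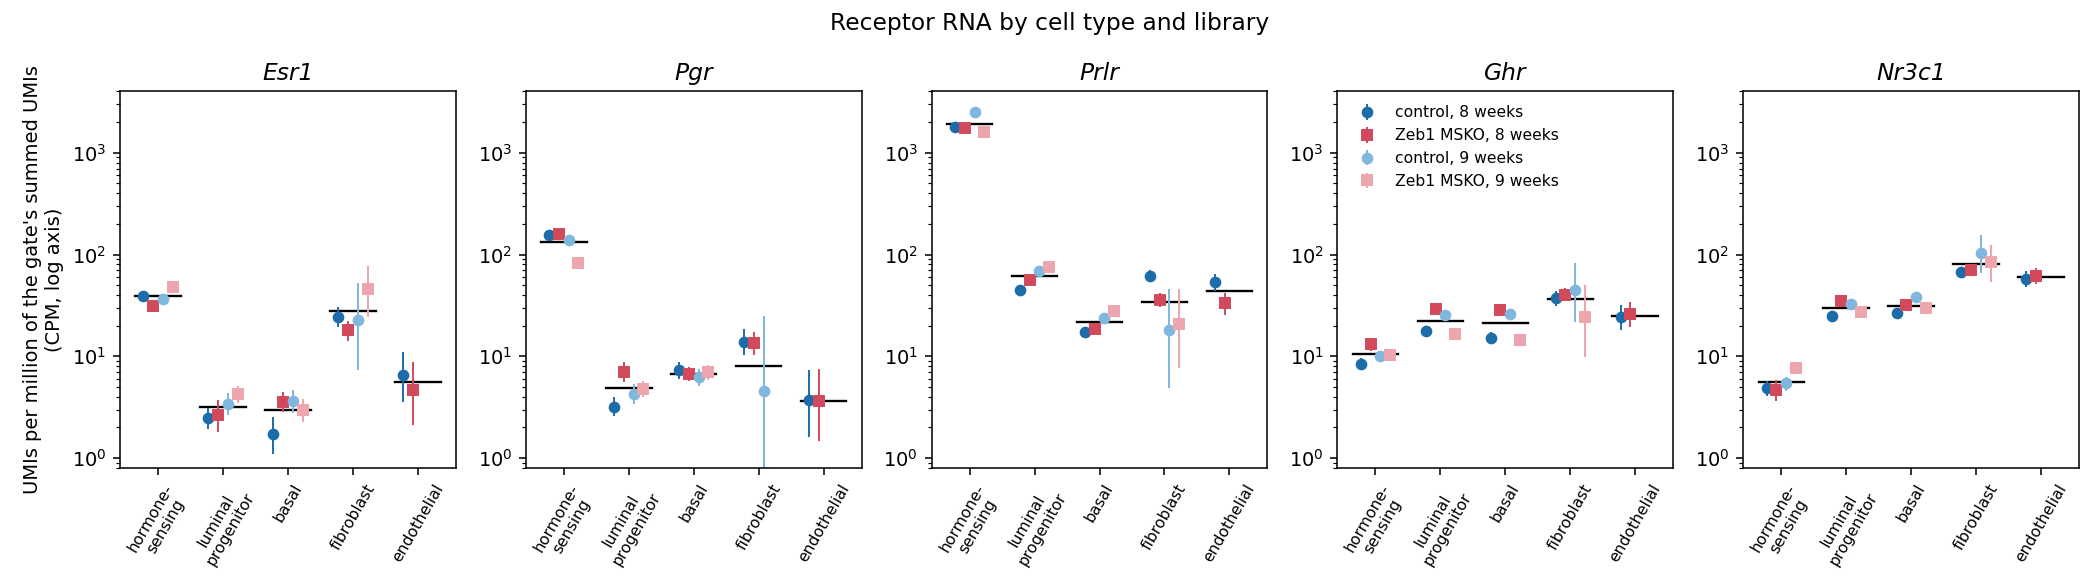
CPM (UMIs of the gene per 1000000 UMIs of the gate, log axis) of the 5 receptors in 5 cell types, 1 point per library with its exact Poisson 95% interval, circles for control and squares for Zeb1 MSKO, and a black line at the mean. Prlr, Pgr and Esr1 are highest in hormone-sensing cells, Ghr and Nr3c1 in fibroblasts; the Pgr value of 0 in the fibroblasts of the Zeb1 MSKO library at 9 weeks cannot be drawn.

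Fibroblasts were the second place where Esr1 RNA was found. They held 24.4, 18.0, 22.6 and 45.4 CPM, the 9-week values resting on 5 and 13 UMIs. The fitted level was 2.90 log2 units above luminal progenitors (SE 0.26, adjusted p = 5.34e-08), 2.98 above basal cells (SE 0.26, adjusted p = 6.67e-08) and 0.73 below hormone-sensing cells (log2 difference -0.73, SE 0.23, adjusted p = 0.0117). With the 8-week Zeb1 MSKO library left out, the last difference was not called (log2 -0.56, adjusted p = 0.0742).

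Pgr in fibroblasts stood at 13.9, 13.5, 4.51 and 0 CPM, the last from 34 cells, where a count of 0 allows up to 10.5 CPM (3 counts). It was 1.15 log2 units above luminal progenitors (SE 0.31, adjusted p = 0.00487), a call lost without the control library at 8 weeks (log2 0.70, adjusted p = 0.153).

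Ghr and Nr3c1 were highest in fibroblasts. Ghr stood at 37.1, 40.3, 45.1 and 24.5 CPM there, and in endothelial cells at 24.2 and 25.9. Nr3c1 reached 66.7, 70.4, 104 and 83.9 CPM in fibroblasts and 57.7 and 61.7 CPM in endothelial cells, all above every epithelial value. Against hormone-sensing cells Nr3c1 was higher in fibroblasts by 3.63 (log2, SE 0.18, adjusted p = 4.62e-11) and in endothelial cells by 3.28 (SE 0.20, adjusted p = 7.66e-10). Ghr was 1.68 higher in fibroblasts than in hormone-sensing cells (log2, SE 0.20, adjusted p = 1.35e-06) and 0.77 higher than in basal cells (SE 0.20, adjusted p = 0.0035), the latter lost without the control library at 8 weeks (adjusted p = 0.101).

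Of the 5 members, fibroblasts differed from hormone-sensing cells in 5 (61.2% of 14913 genes were called), from luminal progenitors in 4 (56.4%), from basal cells in 4 (47.8%) and from endothelial cells in 3 (30%). Endothelial cells differed from hormone-sensing cells in 5 (53.0%), from luminal progenitors in 1, which was Nr3c1 (46.2%), and from basal cells in 2, Prlr and Nr3c1 (43.2%). The median of all genes lay between -0.18 and 0.03 on the log2 scale in these fits, so values for fibroblasts and endothelial cells are relative to a shifted centre. The calls of Ghr in fibroblasts against luminal progenitors (adjusted p = 0.166), Ghr in endothelial against hormone-sensing cells (adjusted p = 0.144) and Nr3c1 in endothelial cells against luminal progenitors (adjusted p = 0.0726) were lost in edgeR's test without the control library at 8 weeks. Without that library, the counts were 2 for fibroblasts against basal cells, 0 for endothelial against basal cells and 1 for fibroblasts against endothelial cells, and the last was also 1 without the Zeb1 MSKO library at 8 weeks. With called doublets kept, Prlr turned from higher to lower in fibroblasts against basal cells (log2 0.90 to -0.20) and in endothelial against basal cells (0.92 to -0.27).

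At 8 weeks a large share of stromal Prlr UMIs came from very few cells. Among 356 endothelial cells of the control library at 8 weeks, 3 cells with at least 10 Prlr UMIs held 71 of the 115 Prlr UMIs, one of them with 40, and in the 8-week Zeb1 MSKO library 2 of 381 cells held 25 of 64. Among fibroblasts 6 of 438 cells held 118 of 212 Prlr UMIs in the 8-week control and 2 of 597 held 62 of 158 in the 8-week Zeb1 MSKO library. These calls of high cells use a threshold chosen after the values were seen. Without those cells the level was 21.1 and 20.4 CPM in endothelial cells and 28.2 and 21.7 CPM in fibroblasts. In the hormone-sensing gate 92.4% to 98.3% of cells reached 10 UMIs. None of the 26 and 34 fibroblasts at 9 weeks did. Luminal progenitors differed from the 8-week stroma: cells with 10 or more held 2.34%, 5.58%, 6.31% and 15.7% of their Prlr UMIs. Without those cells the level in luminal progenitors was 44.2, 53.2, 65.6 and 64.0 CPM. In basal cells such cells held 20.6%, 4.88%, 20.0% and 17.3% of the Prlr UMIs. Whether the high cells are doublets with a hormone-sensing cell was not tested beyond the doublet calls already removed.

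Droplets take up free RNA, so a UMI outside the hormone-sensing gate can come from hormone-sensing cells. Areg (an epidermal growth factor receptor ligand) and Cited1 (a transcriptional coregulator) are strong hormone-sensing transcripts and served as a yardstick: receptor UMIs in each gate were set against the number that its Areg or Cited1 UMIs would bring along at the ratio found in hormone-sensing cells of the same library. Both are gate markers, which keeps cells rich in them out of other gates and lowers the yardstick there. In endothelial cells Prlr was at 1.07 and 0.965 times the Areg yardstick, with 115 and 64 UMIs observed and 107 and 66.3 by the yardstick. Pgr in endothelial cells (8 and 7 UMIs) was at 0.866 and 1.16 times, and the counting intervals of both receptors include the Areg value in both libraries. By Cited1 endothelial Prlr was at 1.90 and 1.46 times and Pgr at 1.53 and 1.76 times, on 22 and 9 Cited1 UMIs. The Prlr intervals (94.9 to 138 and 49.3 to 81.7 UMIs) lay above the Cited1 values of 60.5 and 43.9, while those of Pgr included theirs. A few cells held 71 of the 115 and 25 of the 64 Prlr UMIs, an unevenness that counting intervals do not cover. Endothelial Esr1 (14 and 9 UMIs) was above both yardsticks, at 5.99 and 7.50 times by Areg and 10.6 and 11.3 times by Cited1.

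Basal cells gave a different picture for Pgr and Prlr. Prlr in basal cells was at 0.655 to 1.23 times the Areg and 0.544 to 0.890 times the Cited1 yardstick. Pgr was at 3.19 to 5.87 times the first and 2.15 to 4.24 times the second, with 102, 162, 111 and 136 UMIs. The lower bounds of the counting intervals (83.2, 138, 91.3 and 114 UMIs) lay above the Areg values of 32.0, 47.6, 22.9 and 23.2. These intervals do not cover the lowering of the yardstick by the gate rule, and the source of basal Pgr UMIs was not tested. Esr1 in basal cells, with 24, 87, 65 and 58 UMIs, was at 2.96 to 10.9 times and 3.05 to 7.19 times. In luminal progenitors Prlr was at 1.81 to 2.79 times by Areg and 1.83 to 2.33 times by Cited1, and Pgr at 1.49 to 3.59 and 1.72 to 2.86 times. Fibroblast Esr1 stood farthest from the yardsticks, at 19.0 to 72.9 times by Areg and 7.33 to 40.9 times by Cited1, the upper ends resting on 8 Areg UMIs or fewer.

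**Figure D2:**
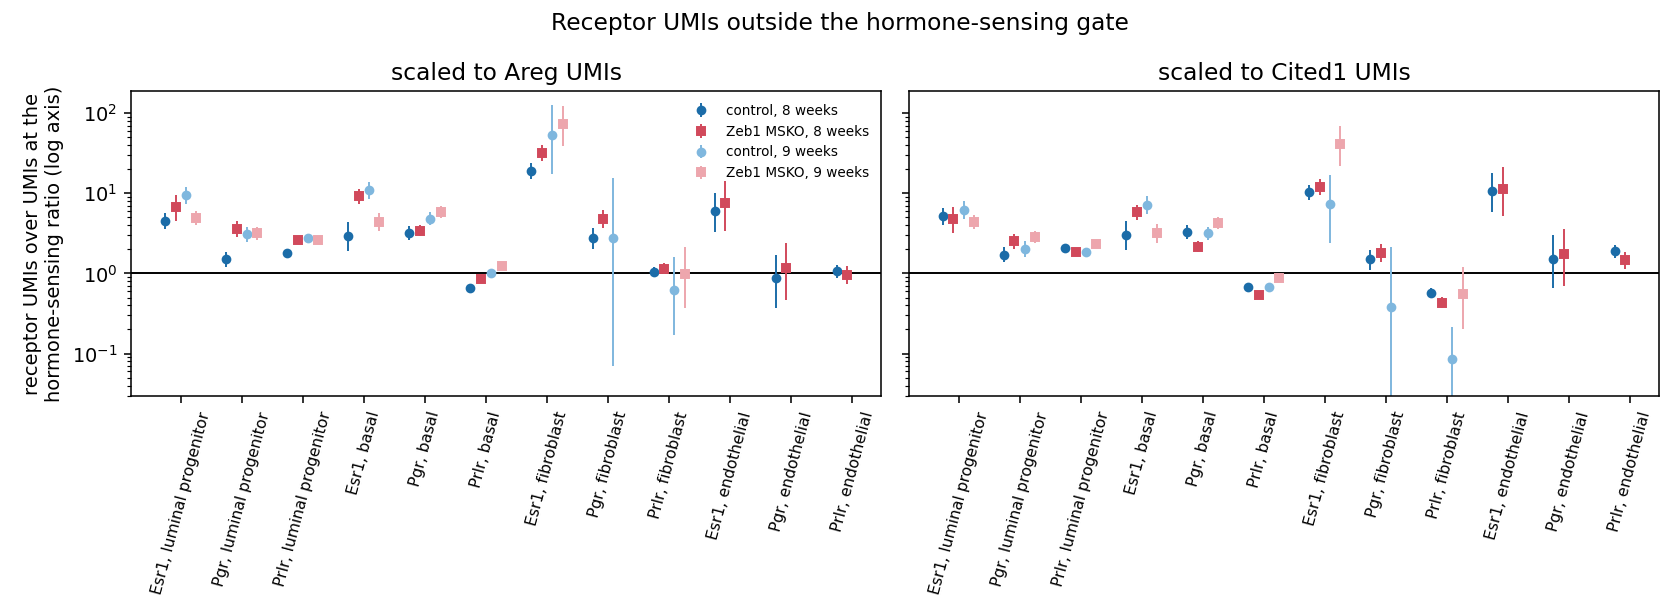
Observed Esr1, Pgr and Prlr UMIs outside the hormone-sensing gate, divided by the UMIs that the gate's Areg (left) or Cited1 (right) UMIs would bring along at the hormone-sensing ratio (log axis), 1 point per library with the Poisson 95% interval of the observed count. At 1 the observed UMIs equal the yardstick. Basal Prlr lies at 0.655 to 1.23 by Areg and at 0.544 to 0.890 by Cited1, where its interval is below 1 in each library. Fibroblast Esr1 lies far above 1.

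Hair follicle keratinocytes were set beside the other gates for shares of cells with a UMI. Whether they express these receptors themselves was not tested. Their Prlr was at 0.794 times the Areg and 0.439 times the Cited1 yardstick, and their Pgr at 1.75 and 0.968 times. The hair follicle keratinocyte gate took 183 cells of the Zeb1 MSKO library at 8 weeks, with a median of 15549 UMIs per cell, against 15426 in hormone-sensing cells there. Those cells showed Prlr in 17.5%, Pgr in 2.73% and Esr1 in 0 of 183, which allows a share of cells with a UMI of up to 1.64% (3 counts), against 99.9%, 84.0% and 36.5% of hormone-sensing cells. Shares of luminal progenitors and basal cells with a Pgr UMI at full depth (2.84% to 5.53% and 4.0% to 5.65%) came from shallower cells, with the medians given above.

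Co-detection asked whether the 3 receptors mark the same hormone-sensing cells. At full depth 33.6%, 30.3%, 32.9% and 37.5% of hormone-sensing cells had UMIs of Esr1, Pgr and Prlr together, and 10.7%, 9.75%, 11.2% and 17% had Prlr alone. Depth alone makes detected genes coincide, so the odds ratios were taken after thinning. For Esr1 and Pgr they were 1.45, 0.871, 0.988 and 0.863, a geometric mean of 1.02 (log2 mean 0.03 ± 0.35, SD, n = 4), with 44, 17, 29 and 27 cells positive for both where independence gives 34.6, 19.0, 29.5 and 30.7. Neither attraction nor avoidance was seen beyond the spread between libraries.

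For Esr1 and Prlr the ratios were 1.05, 0.606, 0.700 and 1.08 (log2 mean -0.26 ± 0.42, n = 4). For Pgr and Prlr they were 1.14, 1.08, 1.33 and 1.94 (log2 mean 0.42 ± 0.38, n = 4), above 1 in 4 of 4 libraries. Only the interval of the Zeb1 MSKO library at 9 weeks (1.10 to 3.42) excluded 1. With nearly all cells positive for Prlr, these ratios rest on the 38 to 162 cells per library without a Prlr UMI after thinning.

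**Figure D3:**
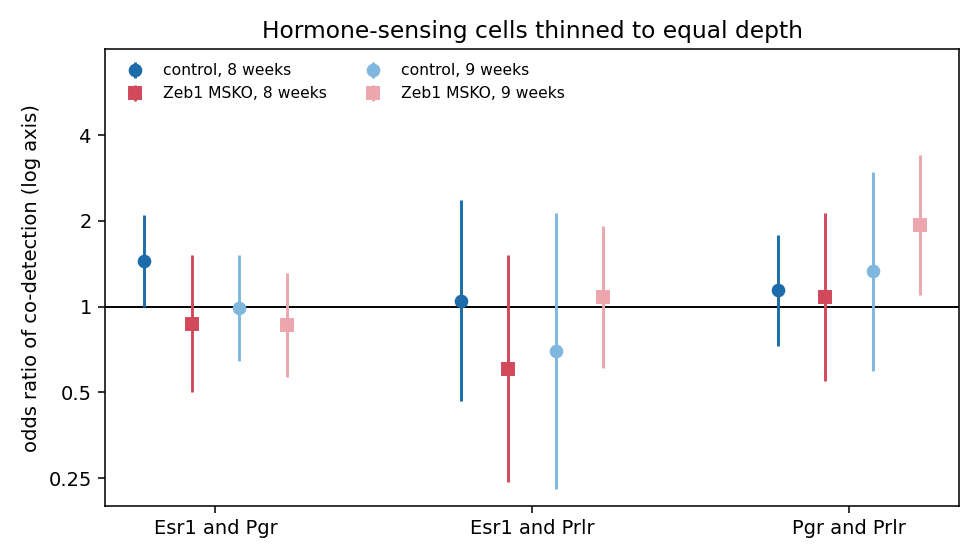
Odds ratio of co-detection (log axis) of each receptor pair in hormone-sensing cells thinned to 2000 UMIs, 1 point per library with its 95% interval. All intervals include 1 except that of Pgr and Prlr in the Zeb1 MSKO library at 9 weeks.

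Hormone-sensing cells with and without a receptor UMI after thinning were then compared over all other genes, with the 2 sums of a library as a pair. Positive and negative below refer to the thinned counts, and many negative cells held the receptor at full depth. Cells without an Esr1 UMI numbered 2043, 940, 1780 and 2203 after thinning and 1289, 645, 1135 and 1153 at full depth. For Pgr they numbered 1605, 758, 1447 and 2068, and 387, 162, 354 and 769. For Prlr they numbered 110, 47, 38 and 162, and 1, 1, 0 and 1. Of the 4 other members, 0 were called for Esr1, Pgr or Prlr status. Of all genes, 0.0853%, 0.202% and 0.770% were called (10 of 11730, 24 of 11894 and 93 of 12083). With shares this low, a count of 0 of 4 says nothing particular about the members. Unadjusted p-values under 0.05 numbered 688, 843 and 1028, and DESeq2 called 0, 1 and 52 genes. For Esr1 status 9 of the 10 called genes were lower in Esr1-positive sums. The one that met the rule for naming, Sbp (a spermine-binding protein), was at 46.4 against 86.5 CPM in the control library at 8 weeks and 42.5 against 198 at 9 weeks, and at or below 1.05 CPM in both Zeb1 MSKO libraries. The count of called genes moved from 2 without the control library at 8 weeks to 25 without the Zeb1 MSKO library at 8 weeks, and DESeq2 called 0.

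For Pgr status the called differences were small, between sums that both held mostly cells with a Pgr UMI at full depth. Krt4 (a keratin) was 0.47 higher on the log2 scale in Pgr-positive sums (SE 0.07, adjusted p = 0.00187) and Tph1, which makes serotonin's precursor, 0.20 higher (SE 0.03, adjusted p = 0.00208). Fgg (a fibrinogen chain) was 0.29 lower (log2 difference -0.29, SE 0.03, adjusted p = 1.37e-05), with 136, 145, 145 and 313 CPM in positive against 160, 182, 187 and 361 in negative sums. Defb1, Id3, H1f0, Ptn and S100a6 were also lower and Malat1 higher, each by less than 0.25 on the log2 scale. Each of these 9 genes moved the same way in 4 of 4 libraries. DESeq2 called 1 gene, and without the control library at 9 weeks edgeR called 37.

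Prlr status called the most genes, 38 higher and 55 lower in Prlr-positive sums. Among those higher were Nrxn3 (a neurexin), at 257, 290, 343 and 15.4 CPM against 180, 249, 165 and 10.1, and Slc5a5 (the iodide transporter), at 559, 465, 679 and 40.5 CPM against 394, 357, 393 and 39.9. Tph1 (log2 0.38, SE 0.07, adjusted p = 0.00132), the lipase inhibitor Angptl4 (0.37), the kinase Dgki (0.56), Tmem158 (0.53), Mtss1 (0.38) and Iigp1 (0.60) rose as well. Sprr2f had the largest value (2.58), but its level came mostly from the control library at 8 weeks, 121 against 19.7 CPM, and it was below 1 CPM in the others.

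Other genes were lower in the cells with a Prlr UMI after thinning. Nearly all cells of the negative sums held Prlr at full depth, so they are not a population without Prlr. Cenpa (a centromere histone) stood at 8.35, 9.91, 5.45 and 9.90 CPM in positive against 16.6, 44.2, 39.3 and 25.5 CPM in negative sums (log2 difference -1.69, SE 0.21, adjusted p = 1.07e-05). Stmn1, which destabilises microtubules, was at -1.06 (SE 0.16, adjusted p = 0.000167), Cks2, a cyclin-dependent kinase subunit, at -0.75 (SE 0.13, adjusted p = 0.000967) and Dut, a nucleotide enzyme, at -0.68 (SE 0.13, adjusted p = 0.0054). The urothelial gene Upk3a was at -2.29 (SE 0.19, adjusted p = 2.31e-08), and Krt6a, S100a14, Pcp4, Serpinb6a and Prdx4 were also lower. Negative cells were not shallower, with median depths of 14724.5, 16027, 15566 and 18842 UMIs against 14233, 15387.5, 15202 and 17240.5 in positive cells.

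Of the receptors' wider pathways, 7 lists of genes were described for the epithelial gates. The shares of all genes to read them against are 28.6% higher and 28.1% lower in hormone-sensing cells than in luminal progenitors (median log2 -0.01), and 35.4% and 34.5% against basal cells (median 0.01). Among 25 other nuclear receptors, 22 were tested, and 7 were higher and 7 lower in hormone-sensing cells than in luminal progenitors (28.6% and 28.1% of all genes, list median log2 0.11). Nr2f6, an orphan receptor, was at 86.0 ± 16.0 against 44.8 ± 8.39 CPM (log2 0.97, adjusted p = 4.97e-05). The vitamin D receptor Vdr was lower, at 6.36 ± 0.316 against 36.8 ± 5.90 CPM (log2 -2.49, adjusted p = 4.26e-07), as were Nr4a1 (-2.04) and Rora (-1.82). Against basal cells 9 were higher and 5 lower (35.4% and 34.5% of all genes, list median 0.16), with Vdr at -2.58, Nr2f6 at 1.27, and Nr1d1 and Esrra at 1.24 and 1.12.

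Partners and coregulators of steroid receptors were split as evenly. Of 22 tested, 7 were higher and 8 lower in hormone-sensing cells than in luminal progenitors (28.6% and 28.1% of all genes, list median log2 -0.10), and 7 and 8 against basal cells (35.4% and 34.5% of all genes, list median -0.23). Tbx3, a T-box repressor, was at 132 ± 37.0 CPM against 22 ± 12.7 in luminal progenitors (log2 2.75, adjusted p = 2.67e-06). Tfap2c, an AP-2 factor that binds with Esr1, was at 7.23 ± 1.39 against 83.1 ± 14.2 CPM (log2 -3.50, adjusted p = 5.47e-09) and lower still against basal cells (-4.26). The coactivator Ncoa1 was also lower in both comparisons (-1.30 and -1.31), and Crebbp by -0.64 against luminal progenitors and the chaperone Hsp90aa1 by -1.61 against basal cells. Cited1 and Foxa1, the pioneer factor of Esr1, are gate markers, so their values (log2 6.0 and 4.65 against luminal progenitors) only restate the gate. Both are counted among the higher genes of the list in both comparisons, so those counts follow in part from the gate.

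Outputs of estrogen and progesterone were divided between the gates. Wnt4, a progesterone-induced ligand, stood at 85.9 ± 31.8 CPM in hormone-sensing cells against 7.12 ± 3.84 in luminal progenitors (log2 3.70, adjusted p = 3.52e-07) and 5.05 ± 2.0 in basal cells (log2 4.11, adjusted p = 1.09e-07). Calca, which encodes calcitonin, was at 86.2 ± 122 CPM, a mean set mostly by 267 CPM in the Zeb1 MSKO library at 8 weeks. Rspo1, a Wnt enhancer induced by ovarian hormones, was instead found in luminal progenitors (36.9 ± 16.6 against 0.698 ± 0.364 CPM). In all, 5 of 14 tested were higher and 4 lower than in luminal progenitors (28.6% and 28.1% of all genes, list median log2 -0.26), and 5 and 7 against basal cells (35.4% and 34.5% of all genes, list median -0.87), where Id4, Cxcl12 and Igfbp4 were lower by more than 5 log2 units. Areg, higher by 6.27 against luminal progenitors, is a gate marker and is counted among the higher genes in both comparisons.

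Of the prolactin pathway's own members, Stat5a and Jak2 were higher in hormone-sensing cells in both comparisons. Stat5a stood at 115 ± 27.1 CPM in hormone-sensing cells against 39.4 ± 7.02 in luminal progenitors (log2 1.57, adjusted p = 1.48e-05) and 27.5 ± 5.32 in basal cells (log2 2.07, adjusted p = 1.02e-06). Jak2 was at 18.8 ± 7.83 against 6.16 ± 0.174 and 8.82 ± 1.86 CPM (log2 1.56 and 1.04, adjusted p = 0.000154 and 0.00151), and the feedback inhibitor Socs3 at 351 ± 155 against 68.9 ± 12.3 CPM in luminal progenitors (log2 2.20, adjusted p = 0.000188), while basal cells held 440 ± 266 CPM of it. In the same list Igf1r and Irs2, the receptor and adaptor of insulin-like growth factor, were lower in hormone-sensing cells, by -3.95 and -3.24 against luminal progenitors and -4.28 and -2.93 against basal cells. Of 20 genes 8 were higher and 7 lower than in luminal progenitors (28.6% and 28.1% of all genes, list median log2 -0.09), and 7 and 8 against basal cells (35.4% and 34.5% of all genes, list median 0.20). Elf5, a Stat5 target of the milk lineage, is a luminal progenitor gate marker and is counted among the genes lower than in luminal progenitors.

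Other class I cytokine receptors did not move as one. Lifr, the receptor of leukemia inhibitory factor, stood at 62.8 ± 22.3 against 6.62 ± 0.889 CPM in luminal progenitors (log2 3.20, adjusted p = 1.05e-07), and Il13ra1 and Crlf2 were higher by 1.73 and 1.70. Lifr stood at 69.4 ± 15.8 CPM in basal cells, within the spread of the hormone-sensing values. Osmr, the oncostatin M receptor, was lower in hormone-sensing cells in both comparisons (-1.25 and -2.16). Of 12 tested 5 were higher and 1 lower than in luminal progenitors (28.6% and 28.1% of all genes, list median log2 0.70), and 1 and 5 against basal cells (35.4% and 34.5% of all genes, list median -0.15).

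Listed genes of glucocorticoid receptor targets and glucocorticoid metabolism were called in both directions, more of them lower in hormone-sensing cells. Against basal cells 11 of 17 tested were lower and 4 higher (34.5% and 35.4% of all genes, list median log2 -1.10). Mt1 was at 840 ± 756 against 6602 ± 1504 CPM and Mt2 at 463 ± 412 against 4045 ± 844. Tsc22d3, a classical glucocorticoid-induced gene, went the other way (log2 0.91, adjusted p = 0.0358). Against luminal progenitors 7 were lower and 4 higher (28.1% and 28.6% of all genes, list median -0.19), among them Lcn2 (74.8 ± 29.4 against 3592 ± 1231 CPM), Per1 (-1.81) and Dusp1 (-1.61) lower and Angptl4 (2.57) and Ddit4 (1.46) higher.

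Milk protein genes were higher in luminal progenitors than in the Prlr-rich hormone-sensing cells. Of 11 tested 10 were lower in hormone-sensing cells than in luminal progenitors (28.1% of all genes, list median log2 -6.33), and 10 were higher in luminal progenitors than in basal cells (29.4% of all genes, list median 6.25). Lalba held 0.704 ± 0.554 CPM in hormone-sensing cells and 90.1 ± 81.9 in luminal progenitors (28.0, 14.3, 181 and 137). Csn1s1 held 0.459 ± 0.418 and 47.1 ± 43.0 CPM, from 1.94 to 104 in luminal progenitors. Csn1s2a stood at 2.01, 4.75, 12.7 and 115 CPM in luminal progenitors, so its mean there is set mostly by the Zeb1 MSKO library at 9 weeks, and at 1.35 CPM or less in hormone-sensing cells. One of the 11, Csn3, is a gate marker.

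**Figure D4:**
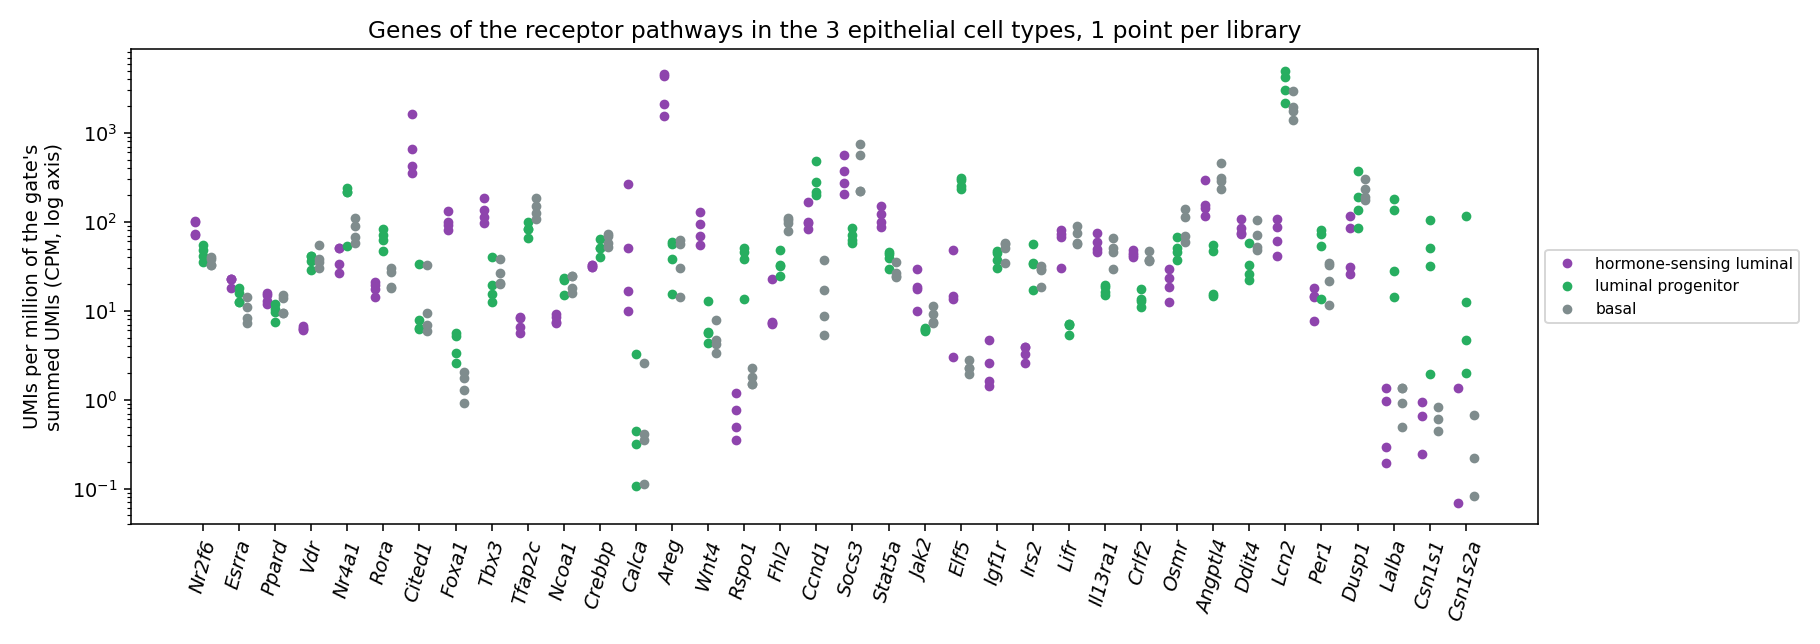
CPM (log axis) of pathway genes named by the rule in hormone-sensing (purple), luminal progenitor (green) and basal (grey) cells, 1 point per library; values of 0 are not drawn. Stat5a, Jak2 and Wnt4 have their highest means in hormone-sensing cells, and Lalba, Csn1s1 and Csn1s2a in luminal progenitors; Cited1, Foxa1, Areg and Elf5 are gate markers.

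The genes whose levels ran most like each member were ranked over 18 profiles, 1 per library and gate, among 9931 genes that reached 10 CPM in a gate. Profiles of a gate share its cell type, so high correlations are common, and they are given as a description. For Esr1 the closest was Agtr1a, the angiotensin II receptor (Pearson r 0.964), which shared its peaks in hormone-sensing cells and fibroblasts (136 and 60.9 CPM), followed by Smim14, Bmp3, Mtfr1l and Leprotl1 (0.931 to 0.945). For Pgr they were Gipc2 (0.968), Tspan1, Gm16485, Mycl and Arg2. For Prlr they were Ndufa7 (0.982), Pllp, Ttc36, Foxa1, a gate marker, and Hp. Ghr had the loosest match, Add3 (0.933), then Pim1, Zhx3, Sash1 and Zbtb20. Nr3c1 was closest to Gprc5b (0.981), then Morc4, Man2a1, Rhoj and Serpinb6a.

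The series asks what Zeb1 MSKO changes, and for these receptors no difference passed the test. In each of the 3 epithelial gates 0 of 5 members were called by edgeR, as were 0% of all genes (0 of 12804 in hormone-sensing cells, 12531 in luminal progenitors and 12787 in basal cells). Unadjusted p-values under 0.05 numbered 433, 185 and 62, and DESeq2 called 29, 6 and 0 genes, with no member among them. In hormone-sensing cells the log2 differences of Zeb1 MSKO over control were 0.11 for Esr1 (SE 0.26), -0.26 for Pgr (SE 0.33), -0.33 for Prlr (SE 0.27), 0.36 for Ghr (SE 0.25) and 0.31 for Nr3c1 (SE 0.36). Across luminal progenitors and basal cells they ran from -0.10 for Nr3c1 in basal cells (SE 0.31) to 0.61 for Pgr in luminal progenitors (SE 0.38).

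Within each age, some receptors gave the same sign at 8 and 9 weeks and others did not. In hormone-sensing cells Pgr was 156 against 158 CPM (control against Zeb1 MSKO) at 8 weeks and 139 against 83.4 at 9 weeks, log2 ratios of 0.02 (95% counting interval -0.05 to 0.09) and -0.74 (-0.81 to -0.67). Prlr was below 0 at both ages, by far less at 8 weeks (-0.05, -0.07 to -0.03) than at 9 weeks (-0.65, -0.66 to -0.63). The Esr1 ratio was below 0 at 8 weeks (-0.32) and above 0 at 9 weeks (0.39). Ratios of Prlr in luminal progenitors were above 0 at both ages, at 0.31 (0.18 to 0.45) and 0.11 (0.01 to 0.21). Without cells of 10 or more Prlr UMIs, luminal progenitors held 65.6 CPM in the 9-week control and 64.0 in the 9-week Zeb1 MSKO library. Pgr there was at 1.13 (0.68 to 1.58) and 0.17 (-0.25 to 0.60). Esr1 there was at 0.09 (-0.57 to 0.72) and 0.31 (-0.16 to 0.78), so both intervals included 0. Prlr in basal cells was at 0.10 (-0.13 to 0.33) and 0.24 (0.06 to 0.43). In luminal progenitors and basal cells Ghr was higher in Zeb1 MSKO at 8 weeks (0.70 and 0.92) and lower at 9 weeks (-0.62 and -0.84). Counting intervals cover UMI sampling only, and with 1 library per genotype and age, animal, preparation and genotype cannot be told apart.

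**Figure D5:**
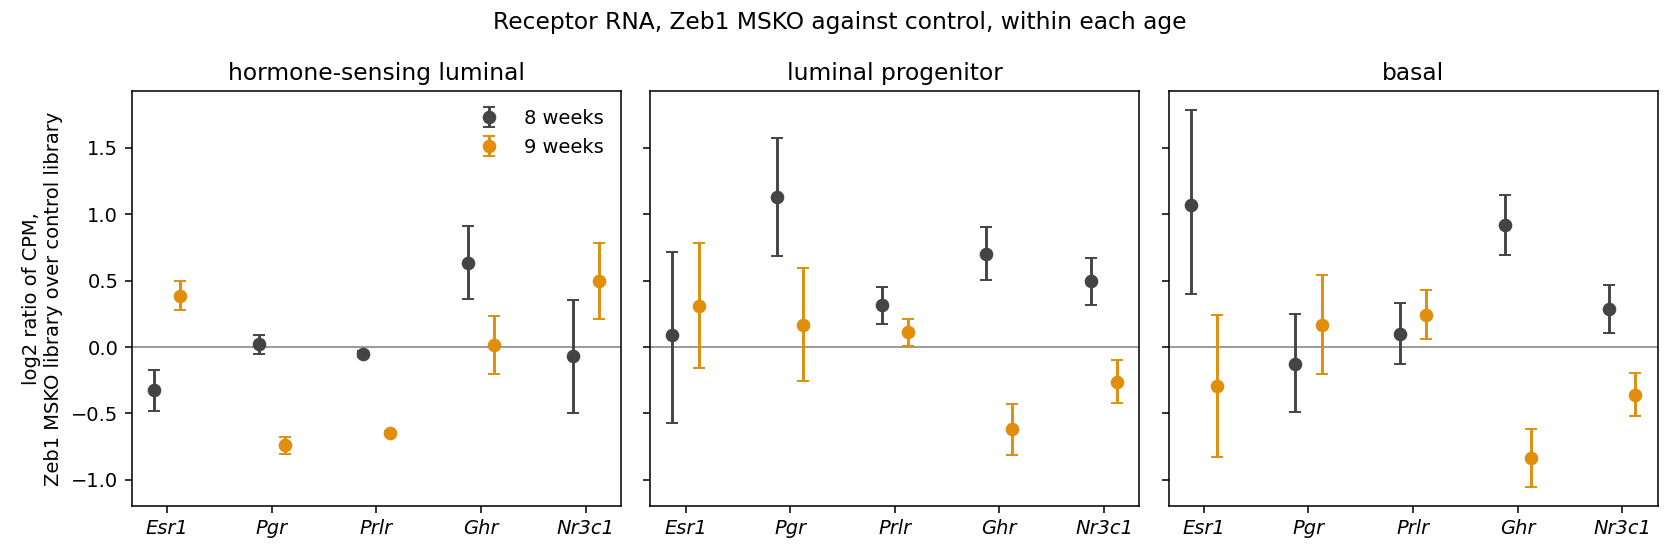
Log2 ratio of CPM, Zeb1 MSKO over control, for the 5 receptors in the 3 epithelial gates at 8 weeks (grey) and 9 weeks (orange), 1 library per genotype and age, with 95% intervals that cover counting error only. Ghr lies above 0 at 8 weeks and below 0 at 9 weeks in luminal progenitors and basal cells.

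Markers of other cell types moved with the libraries too. In hormone-sensing cells the basal panel summed to 59.6, 295, 111 and 105 CPM and the fibroblast panel to 44.1, 92.1, 19.5 and 23.8 CPM, highest in the Zeb1 MSKO library at 8 weeks, while all 6 markers of each were above 0 in each library. In luminal progenitors the basal panel summed to 75.6, 338, 125 and 138 CPM. Their part in the genotype values was not tested.

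Whether the genotype effect differed between cell types was tested as an interaction, and 0 of 5 members were called for any of the 3 pairs of gates, as were 0% of 14304 genes (796, 634 and 311 at unadjusted p under 0.05; DESeq2 called 22, 12 and 0). The member with the largest value was Pgr, whose genotype difference was 0.91 lower in hormone-sensing cells than in luminal progenitors (log2 interaction -0.91, SE 0.35, adjusted p = 0.815). Age was compared with genotype in the model. For 9 against 8 weeks 0 of 5 members were called in hormone-sensing cells (0% of genes by edgeR, 1271 at unadjusted p under 0.05, DESeq2 279), luminal progenitors (1.22%) and basal cells (2.17%). Pgr in hormone-sensing cells had a log2 difference of -0.50 (SE 0.25, adjusted p = 0.583), and Prlr in luminal progenitors 0.55 (SE 0.25, adjusted p = 0.487).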

How the data were processed

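The authors deposited 1 matrix of raw UMI counts for 4 libraries, with the library given by the cell barcode's suffix. Cell Ranger 2.1.0 and the mm10 build are named in the submitters' processing notes, and no label states how depth was equalised between libraries. Barcodes with under 500 genes or over 10% mitochondrial UMIs were dropped. Doublets were then called per library with Scrublet (scanpy 1.11.5, 2 simulated doublets per cell, 2000 variable genes, 30 components, assumed rate 8%) and removed: 395, 364, 377 and 702 cells, which recovered 51.1% to 74.0% of simulated doublets.

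The gate rule was set after the data were seen, and the members, marker panels and gene lists were chosen with earlier results of these data known. The threshold of 10 Prlr UMIs and the Areg and Cited1 yardsticks were also chosen after seeing the data. CPM is a gate's UMIs of a gene per 1000000 of its UMIs in a library, with an exact Poisson 95% interval. Shares of cells were taken after random thinning to 2000 UMIs and at full depth, with Wilson intervals. Intervals cover counting error only.

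Counts summed per gate and library were tested with edgeR 4.0.16 (quasi-likelihood, filterByExpr, TMM, Benjamini-Hochberg adjustment at 0.05) in R 4.3.3. The fits with fibroblasts and endothelial cells used TMMwsp instead of the planned TMM, because TMM was unstable for sums of 26 and 34 cells in tests on simulated data. Sums of fewer than 20 cells were left out. DESeq2 1.42.0, RLE factors, no filter, other gates, kept doublets, other thinning depths and leaving out each library were the alternatives. The fits were tested on simulated counts. Replicate numbers stand for the ages 8 and 9 weeks, and the labels do not say that a number marks a shared litter or day.

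Named genes were up to 3 called genes per list, contrast and direction with the largest log2 difference and a mean of at least 10 CPM, up to 10 per direction for cells with and without a receptor UMI, also moving the same way in all libraries, and the 5 genes most like each member by Pearson r of log2(CPM + 1). Other analyses used Python 3.11.15 with numpy 2.4.6 and scipy 1.17.1, and matplotlib 3.10.9 for plots. Promoter letters are from RefSeq, and none are shown for Nr3c1.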

Additional observations from a re-analysis of the deposited data

Results flagged for a closer look

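For 5 pairs of a receptor and a gate, the ratio of Zeb1 MSKO to control went one way at 8 weeks and the other way at 9 weeks, with counting intervals on either side of 0. Each age has 1 library per genotype, so the difference between the ages was not tested. Esr1 in hormone-sensing cells had a log2 ratio of -0.32 at 8 weeks and 0.39 at 9 weeks. Ghr had 0.70 and -0.62 in luminal progenitors, and 0.92 and -0.84 in basal cells. Nr3c1 had 0.50 and -0.26 in luminal progenitors, and 0.28 and -0.36 in basal cells. In these last 4 pairs the same 2 libraries, Zeb1 MSKO at 8 weeks and control at 9 weeks, held the higher values.

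Cells that no gate took held much Prlr, at 553 CPM in the 8-week control, 276 in the 8-week Zeb1 MSKO, 1154 in the 9-week control and 1094 in the 9-week Zeb1 MSKO library. They numbered 1666, 1751, 1270 and 1383 cells and entered no comparison, so the gated hormone-sensing cells are not all the Prlr-positive cells of these libraries.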

How the results depend on the processing

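For the 5 receptors, hormone-sensing cells differed from luminal progenitors and from basal cells in the same direction and past the threshold under all 12 alternatives. Luminal progenitors against basal cells gave 2 called members with DESeq2, RLE factors, no filter or the stricter gate, and 1 to 2 with a library left out, and Esr1 there went to -0.051 (stricter gate), -0.14 (doublets kept) and from -0.12 to 0.24 with a library left out. Endothelial cells against luminal progenitors gave 2 with DESeq2, the stricter or the looser gate, and 1 member was called for age in basal cells with doublets kept. With a library left out, fibroblasts against basal cells gave 2 to 5, endothelial against basal cells 0 to 3, and fibroblasts against endothelial cells 1 to 3. With doublets kept, Prlr was at -0.20 in fibroblasts and -0.27 in endothelial cells against basal cells.

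Genes called for Esr1 status numbered 0 with DESeq2, 65 with no filter, 6 with the gate without Areg, 16 at 4000 UMIs and 2 to 25 with a library left out. For Pgr they were 1, 359 with no filter, 88 without thinning, 15 at 4000 UMIs and 19 to 37. For Prlr they were 52 with DESeq2, 187 with no filter, 60 with the stricter gate and 174 with doublets kept; without thinning or at 4000 UMIs too few cells lacked Prlr. The mean log2 odds ratio of Esr1 and Prlr was 0.26 at 4000 UMIs, and that of Pgr and Prlr 2.36 without thinning.

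With age as a replicate block, no genotype call changed (0 genes in each gate, 554, 355 and 173 at unadjusted p under 0.05 by edgeR), and Ghr went to -0.0057 in luminal progenitors and -0.0044 in basal cells. Basal Pgr was 0.013 with the looser gate and basal Prlr -0.45 with doublets kept. With a library left out, the genotype difference ranged from -0.26 to 0.38 for Esr1, -0.76 to 0.11 for Pgr and -0.14 to 0.63 for Nr3c1 in hormone-sensing cells. In luminal progenitors it ranged from -0.25 to 0.52 for Esr1, -0.40 to 0.34 for Ghr, -0.11 to 0.49 for Prlr and -0.11 to 0.27 for Nr3c1. In basal cells it ranged from -0.14 to 0.85 for Esr1, -0.18 to 0.14 for Pgr, -0.55 to 0.49 for Ghr, -0.14 to 0.39 for Prlr and -0.29 to 0.13 for Nr3c1. Over all genes, no filter gave 4, 93 and 22 genotype calls, 91, 553 and 516 age calls, and 23, 13 and 0 interaction calls. The age comparison has no residual degrees of freedom with a library left out and was not run so. The cause of these shifts was not tested. With 2 libraries per genotype, small differences in the receptors are not detectable.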

Other observations

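Some other genes of hormone-sensing cells set the Zeb1 MSKO library at 9 weeks apart, the library in which Pgr and Prlr were lowest; they were chosen after their values were seen. Ptn, a heparin-binding growth factor, stood at 7143 CPM in the 8-week control, 7276 in the 8-week Zeb1 MSKO, 6556 in the 9-week control and 817 in the 9-week Zeb1 MSKO library. Nrxn3 stood at 253, 288, 339 and 15.0 CPM in the same order, and Slc5a5 at 551, 459, 673 and 40.5 CPM. Areg instead was higher in both libraries at 8 weeks (4289 and 4522 CPM) than at 9 weeks (1558 and 2129 CPM). Age cannot be told apart from preparation here, and edgeR called 0 of 12804 genes for age in this gate. Calca was highest in the Zeb1 MSKO library at 8 weeks, at 267 CPM against 51.1, 9.87 and 16.5 CPM in the others.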
